A study of Mus musculus with 19 samples.

Results

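The genes described here encode 37 enzymes of glucose breakdown, taken by symbol from a list, out of 24130 Ensembl genes with a value in at least 1 library. They comprise 13 genes of glycolysis, 2 of lactate dehydrogenase, 4 of the pyruvate dehydrogenase complex, 3 of its inhibitory kinases, 11 of the mitochondrial citrate cycle, 3 cytosolic counterparts of citrate cycle enzymes and Pcx, which encodes pyruvate carboxylase. The questions were how their expression was shared among the layers of the neocortex, whether glycolysis and the citrate cycle followed the same course, and whether isozymes replaced one another with depth.

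Polyadenylated RNA was sequenced from primary somatosensory cortex (S1) of male C57BL/6 mice (C57BL/6J in the study's methods) aged 56 days, with no treatment or transgene named in the labels. Segments A to F were cut in order of depth and are labelled as mostly layers 1 to 3 (A), layer 4 (B), layer 5 (C, and D below it), layer 6 (E) and layer 6b (F). Libraries A, C, D, E and F each held pooled tissue of 8 mice, and B1 and B2 each held that of the 4 mice of a litter. All segments came from the same 8 mice, so C and D, like the other segments, are not independent samples of animals, although the tests treat the libraries as independent. The segments did not match the layers exactly, so that a library can hold tissue of its neighbours. The 12 libraries from dorsal and lateral cortex were not used here.

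Glycolysis splits glucose into pyruvate in the cytosol, and lactate dehydrogenase interconverts pyruvate and lactate. The pyruvate dehydrogenase complex commits pyruvate to the mitochondrion, where the citrate cycle oxidises it and supplies electrons to the respiratory chain. In brain, neurons are known for a high oxidative demand and astrocytes for glycolysis and lactate release, and several of the enzymes have isozymes that differ between these cells.

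Levels are given in FPKM, a fragment count corrected for transcript length and for the number of mapped fragments of the library. Depth, estimated from coverage, was lowest in A at 31.3 M fragments (M for mega) and 41.6 to 74.9 M in the others. Mitochondrially encoded RNA held 5.03% (F) to 21.8% (A) of the summed FPKM, with 7.76% in B1 and 18.2% in B2. The layer markers Cux2 (superficial layers), Rorb (layer 4), Fezf2 (layer 5) and Ccn2 (layer 6b) were highest in B1, B2, C and F, and Cux2 was 37.9 FPKM in A against 9.17 or less in C to F. Only segment B had replicates (n = 2), so p-values measure the spread between these libraries, which includes differences between layers. A gene was classifiable if its widest 95% interval spanned at most 50% of its mean FPKM. Of the 37 genes, 36 passed, and Suclg2, the GTP-forming succinyl-CoA ligase subunit, did not (0.306 to 1.35 FPKM). In bulk tissue, fewer cells of a type and less RNA per cell cannot be told apart.

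Genes of the citrate cycle were highest in layer 5. In 9 of 10 classifiable citrate cycle genes, the gene values of C and D were both above those of all 5 other libraries. Single transcripts did not always share this order, as given for Dld and Mdh2 below. Over all 36 classifiable enzymes this held for 14, and over all 11409 classifiable genes for 7.56%. In glycolysis it held for 2 of 13 genes, Pfkm and Eno2. The remaining 3 were Pdha1 and Dld of the pyruvate dehydrogenase complex and Mdh1, the cytosolic malate dehydrogenase. The count over all 36 lay between 13 and 18 under each rescaling, correction for GC content or transcript length, or omission of a library other than C or D. The share of all genes lay between 6.49% and 13.9% under these settings, and the count of 18, without E, went with 13.9%.

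**Figure D1:**
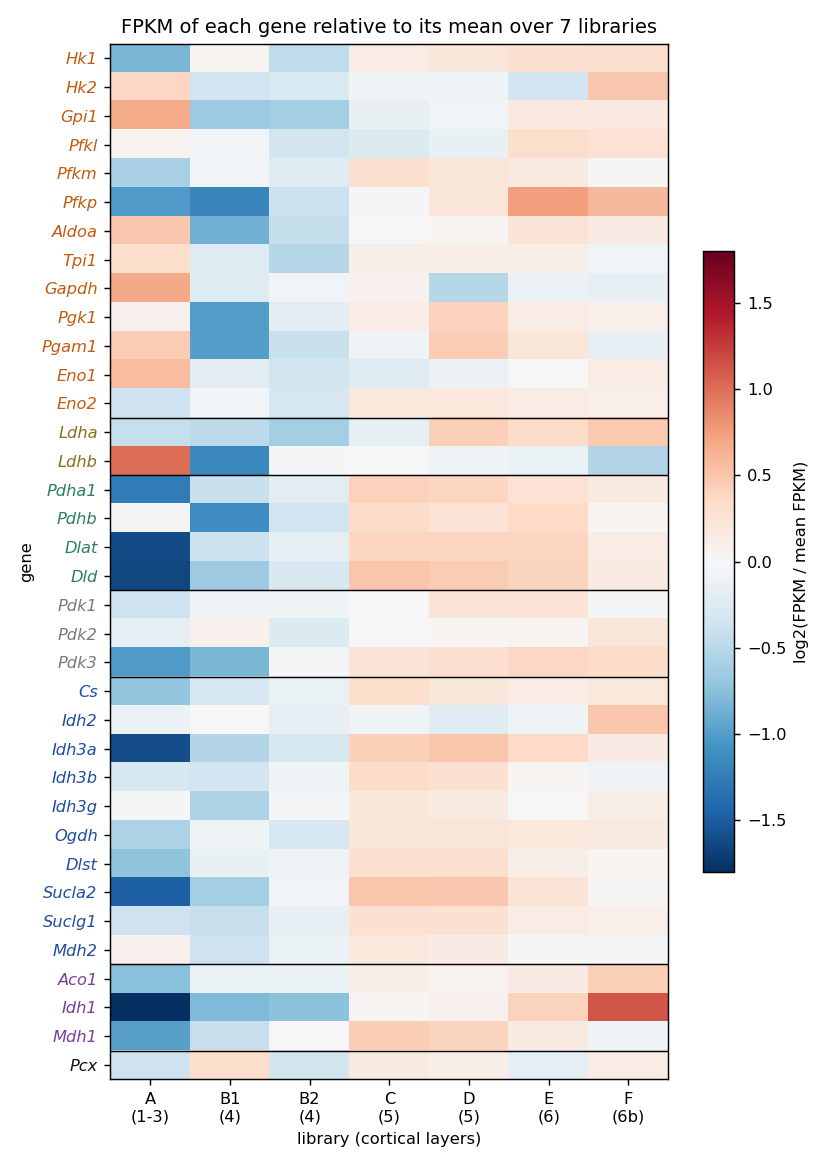
Level of each of the 36 classifiable enzymes (rows, coloured and ruled off by group) in the 7 libraries (columns), as log2 of its FPKM over its mean FPKM of the 7 libraries (colour scale). The rows of the citrate cycle, apart from Idh2, are reddest in C and D, and 7 rows of glycolysis and lactate dehydrogenase are reddest in A.

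In the pyruvate dehydrogenase complex 2 of 4 genes, Pdha1 and Dld, had C and D on top, and Pdhb and Dlat were highest in E. Pdha1, the catalytic subunit of pyruvate dehydrogenase (X:156560141-156576345, mm9), had 23.5 FPKM in A, 42.6 and 48.9 in B1 and B2, 74.5 and 73.1 in layer 5 (C, D) and 67.3 and 62.8 in E and F. Dld, the dihydrolipoamide dehydrogenase subunit (12:32016429-32036280, mm9), had 13.1, 25.9, 33.5, 57.8, 56.0, 53.8 and 45.8 FPKM in the same order. By gene values, for both genes A was lowest, B lay between A and the deep segments, and the levels of C and D were above all others. The 95% intervals of C and D were clear of E for Pdha1 and overlapped with that of E for Dld. The only Dld transcript matched to the reference had 36.9 FPKM in C, 43.8 in D and 39.2 in E. In F it had 22.2 FPKM, against 25.9 and 27.4 in B1 and B2. On this transcript C was below E, and F was below both litters. Dlat, the acetyltransferase subunit, rose from 8.33 FPKM in A to 33.2 in C, 33.0 in D and 33.2 in E, so that gene values did not separate layers 5 and 6. Its 4035-base transcript had 23.2 and 24.2 FPKM in C and D, with 95% intervals above those of E (20.8) and F (16.8). The rest was a 770-base transcript with intervals too wide to be classifiable, at 0 in A and B1 and 12.4 FPKM in E. Pdhb, the beta subunit of the enzyme that Pdha1 encodes in part, was listed at 10.2 FPKM in A, 4.74 in B1, 8.10 in B2 and 10.6 to 13.2 in the others. The ratio of Pdhb to Pdha1 was 0.433 in A and 0.111 to 0.196 elsewhere, although both subunits belong to the same complex. Of the 50-base windows of their transcripts, the length of most reads, 16.9% of Pdha1 and 30.3% of Pdhb were also found in transcripts of other genes.

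Within the citrate cycle, Idh3a and Sucla2 had the widest ranges. Idh3a encodes the catalytic alpha subunit of NAD-dependent isocitrate dehydrogenase (ENSMUSG00000032279, 9:54434297-54451752, mm9). Its levels were 25.3 FPKM in A, 53.0 and 62.7 in B1 and B2, 102.7 and 108.3 in layer 5 (C, D) and 98.2 and 84.4 in E and F. Sucla2 encodes the ATP-forming subunit of succinyl-CoA ligase (ENSMUSG00000022110, 14:73952605-73995449, mm9). Its levels were 20.9 FPKM in A, 37.7 and 55.9 in B1 and B2, 81.2 and 81.1 in layer 5 (C, D) and 68.4 and 58.8 in E and F. In both genes the order was A, then B1, then B2, then F, then E, with C and D on top and close to each other.

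The other citrate cycle genes had a flatter layer 5 maximum. Cs, citrate synthase, had 31.7 FPKM in A, 41.6 and 47.1 in B1 and B2, 63.9 and 59.1 in C and D, and 56.3 and 58.6 in E and F. D and F, next to each other in this order, differed by less than B1 and B2 did. Ogdh, the first subunit of the oxoglutarate dehydrogenase complex, had 73.1 FPKM in C and 73.3 in D against 71.0 to 72.2 in F and E, so its separation from layer 6 was within the difference between the litters, 59.1 and 51.2. Dlst, the second subunit of that complex, had 45.1 FPKM in C and 44.9 in D against 22.2 to 39.5 in the others. Suclg1, the shared subunit of succinyl-CoA ligase, had 50.5 FPKM in both C and D against 31.3 to 45.8 in the others. Idh3b and Idh3g, the regulatory subunits paired with Idh3a, had 116.2 and 80.6 FPKM in C, and the highest level outside layer 5 was 94.9 for Idh3b, in E, and 75.9 for Idh3g, in F. The main Idh3g transcript had 64.4 FPKM in C and 37.4 in F, and shorter transcripts made up the rest. Mdh2, the mitochondrial malate dehydrogenase and the most abundant transcript of the cycle, had 180.0 FPKM in C and 175.5 in D against 166.3 in A and 121.3 to 160.7 in the others.

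Idh2, the NADP-dependent mitochondrial isocitrate dehydrogenase, was the exception. Its levels were 8.85 FPKM in A, 9.61 and 8.62 in B1 and B2, 9.15 and 8.20 in C and D, and 9.04 and 13.5 in E and F. F was highest, with an interval above all others, and the other 6 libraries lay at 8.20 to 9.61.

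Layer 4 was averaged over its litters, and each gene was expressed as a share of its FPKM summed over the 6 segments. Layer 5 (C plus D) held a median of 39.1% over the 10 citrate cycle genes (30.0% in Idh2 to 45.4% in Sucla2). The median was 42.4% over the 4 pyruvate dehydrogenase genes, 33.4% over the 13 glycolysis genes and 34.2% over all classifiable genes. Citrate cycle and pyruvate dehydrogenase genes lay above all genes, and glycolysis close to them. In segment A the order was the other way round, with a median share of 20.1% for glycolysis, 11.7% for the citrate cycle, 6.05% for pyruvate dehydrogenase and 12.4% for all genes. Over all genes, levels in A were lower the lower the GC content, which had a median of 46.4% in pyruvate dehydrogenase and 50.7% in all genes. With GC content and length corrected, A minus the median of the other libraries (log2) moved from -1.46 to -0.47 for Pdha1. It moved from -1.85 to -0.92 for Dlat, from -1.91 to -0.77 for Dld and from -0.16 to 0.38 for Pdhb.

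Neuronal RNA moved with these counts. The summed FPKM of 10 neuron markers was 4148 in C and 4282 in D against 2150 (A) to 3947 (E) elsewhere, and 7 of the 10, among them Snap25 and the neurofilament genes, had C and D above all others. The sum of 6 interneuron markers was 526 in C and 564 in D against 297 to 441. Of 8 astrocyte markers 2 had C and D on top, and of 10 oligodendrocyte markers none did, where 7.56% of all genes did. The part of cell composition in the layer 5 maximum was not tested.

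Against the spread of the other libraries the layer 5 difference of single genes was small. In limma on log2(FPKM + 0.1), C and D against the 5 other libraries gave no enzyme with an adjusted p of at most 0.05 (0 of 36, with 0.0351% of all genes), and at an unadjusted p of at most 0.05 again 0 were higher and 0 lower (1.25% and 0.429% of all genes). The log2 difference was 0.44 ± 0.21 (SE) for Idh3b, 0.69 ± 0.33 for Mdh1 and 0.86 ± 0.45 for Sucla2, each with a limma adjusted p of 0.99. The median log2 difference was 0.70 over pyruvate dehydrogenase, 0.42 over the citrate cycle, 0.19 over glycolysis and 0.12 over all genes. With each library divided by its median ratio to the geometric mean of the libraries, the median of all genes moved to -0.01 and that of the citrate cycle to 0.28, and the citrate cycle stayed above all genes. With GC content and length corrected, the medians were 0.43 over pyruvate dehydrogenase, 0.27 over the citrate cycle, 0.16 over glycolysis and -0.002 over all genes.

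**Figure D2:**
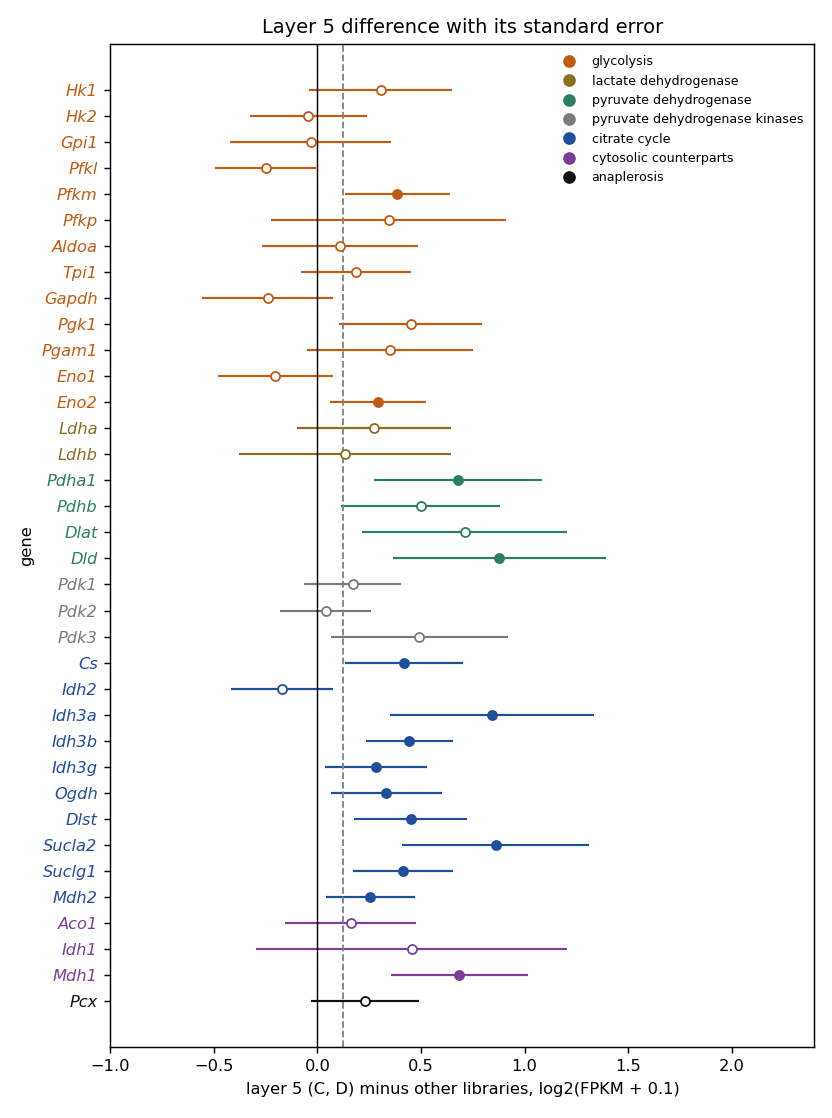
Difference between layer 5 (C and D) and the other 5 libraries for each of the 36 classifiable enzymes, on the log2(FPKM + 0.1) scale, with its standard error from limma as a bar and the median of all genes as a dashed line. Filled points mark the 14 enzymes whose C and D levels were above all other libraries, and the citrate cycle apart from Idh2 lies at 0.26 to 0.86.

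Against layer 4 alone, C and D compared with B1 and B2, the limma test again passed 0 of 36 enzymes after adjustment (0.0701% of all genes). At an unadjusted p of at most 0.05, 19 of 36 were higher in layer 5, where 16.9% of all genes were. They included 8 of 10 citrate cycle genes and 5 of 13 glycolysis genes. The log2 differences were 0.87 ± 0.15 (SE) for Idh3a, 0.95 ± 0.18 for Dld and 0.81 ± 0.12 for Idh1, each with an adjusted p of 0.21. Their GC content was 46.9%, 40.6% and 43.8%, against a median of 50.7% in all genes. For the 2701 genes with the lowest GC content, a library minus the median of the others (log2) was -0.46 in B1, -0.16 in B2, 0.11 in C and 0.20 in D. The contrast with layer 4 was not run with GC content corrected.

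In glycolysis the highest segment was most often A. The levels of A were above those of all other libraries in 6 of 13 glycolysis genes (Gpi1, Aldoa, Tpi1, Gapdh, Pgam1 and Eno1) and in Ldhb. Over all 36 enzymes these 7 (19.4%) were close to the 18.5% of all genes. For all but Pgam1 the 95% interval of A also lay above every other interval. No classifiable citrate cycle or pyruvate dehydrogenase gene was highest in A. A was below all others in 17 of 36 enzymes (47.2%), close to the 49.8% of all genes. They included 5 of 10 citrate cycle genes and 3 of 13 glycolysis genes.

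With the litters averaged, the highest segment was A in 7 enzymes (20.9% of all genes), B in 0 (7.98%), C in 12 (10.6%), D in 4 (9.72%), E in 6 (18.9%) and F in 7 (31.9%). Of the 10 citrate cycle genes 9 were highest in C or D and Idh2 in F. C and D were below all others in 0 of 36 enzymes, against 2.55% of all genes.

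Aldoa, aldolase A, had the highest mean of all 37 genes and held 515 FPKM in A, 203 and 273 in B1 and B2, 370 and 377 in layer 5 (C, D) and 431 and 407 in E and F. Gpi1, glucose-6-phosphate isomerase, had 99.8 FPKM in A, 40.0 and 41.1 in B1 and B2 and 57.6 to 70.9 in the deeper segments. In both genes the superficial segment was highest and layer 4 lowest, with no overlap between layer 4 and the deeper segments. Gapdh, glyceraldehyde-3-phosphate dehydrogenase, had 83.0 FPKM in A, 54.9 in C, 36.4 in D and 44.0 to 50.2 in the rest. Eno1, the ubiquitous enolase, had 68.1 FPKM in A and 36.97 (B2) to 51.1 (F) elsewhere. Tpi1, triose-phosphate isomerase, had 103.2 FPKM in A and 57.7 (B2) to 89.4 (D) elsewhere. Pgam1, phosphoglycerate mutase, had 19.4 FPKM in A and 19.0 in D, which did not differ beyond their intervals, and 7.08 to 16.3 elsewhere.

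The other 7 glycolysis genes were not highest in A, and 3 of them were lowest there. Hk1, the main hexokinase of brain, had 59.4 FPKM in A, 107.2 and 76.6 in B1 and B2, 115.5 and 120.6 in C and D, and 127.3 and 127.5 in E and F. Pfkm, the muscle-type phosphofructokinase subunit, had 81.0 FPKM in A, 116.3 and 103.2 in layer 4, 147.2 and 140.3 in C and D, and 135.8 and 122.2 in E and F. Eno2, the neuronal enolase, had 278 FPKM in A, 347 and 293 in layer 4, 412 and 410 in C and D, and 396 and 382 in E and F. These 3 genes were lowest in A, and Pfkm and Eno2 peaked in layer 5 as the citrate cycle did. Pfkl, the liver-type subunit, was highest in E at 54.0 FPKM and lowest in B2 at 34.6, and Pgk1, phosphoglycerate kinase, ranged from 6.84 FPKM in B1 to 18.3 in D. Hk2, the inducible hexokinase, stayed at 0.480 (B1) to 0.861 FPKM (F).

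Read sharing with other genes moved with the A maximum. All 7 enzymes highest in A had at least 7.51% of their 50-base windows in transcripts of other GENCODE genes, with a median of 27.0%, and 5 of the 29 others had more than 5%, with a median of 0%. Gapdh shared 82.5% of its windows, with transcripts of 222 genes of which 207 have pseudogene transcripts alone, and Eno1 shared 72.2%, Pgk1 68.0% and Pgam1 41.5%. The levels of these 4 genes are therefore uncertain. Among citrate cycle genes 9 of 11 shared no window, Cs shared 4.00% and Suclg2 21.8%.

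Transcript length, base composition and other cells also moved with segment A. Over all classifiable genes with a reference transcript, the level of A minus the median of the other libraries was a median of 0.12 on the log2 scale for the 2703 genes with the shortest transcripts and -0.85 for the 2698 with the longest. By GC content it was -0.96 for the 2701 genes with the lowest content and 0.08 for the 2700 with the highest. The enzymes highest in A had a median transcript length of 1607 bases and the others 2356. The summed FPKM of 5 listed blood markers, mainly globins, was 939 in A and 101 to 149 elsewhere, and that of 6 meninges markers 30.8 in A and 4.32 to 7.06 elsewhere. With GC content and length corrected, the 7 enzymes were still highest in A, together with Hk2, Pgk1, Pdhb and Pdk1, where 31.6% of all genes were highest in A. The parts of read sharing and of other cells were not tested.

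**Figure D3:**
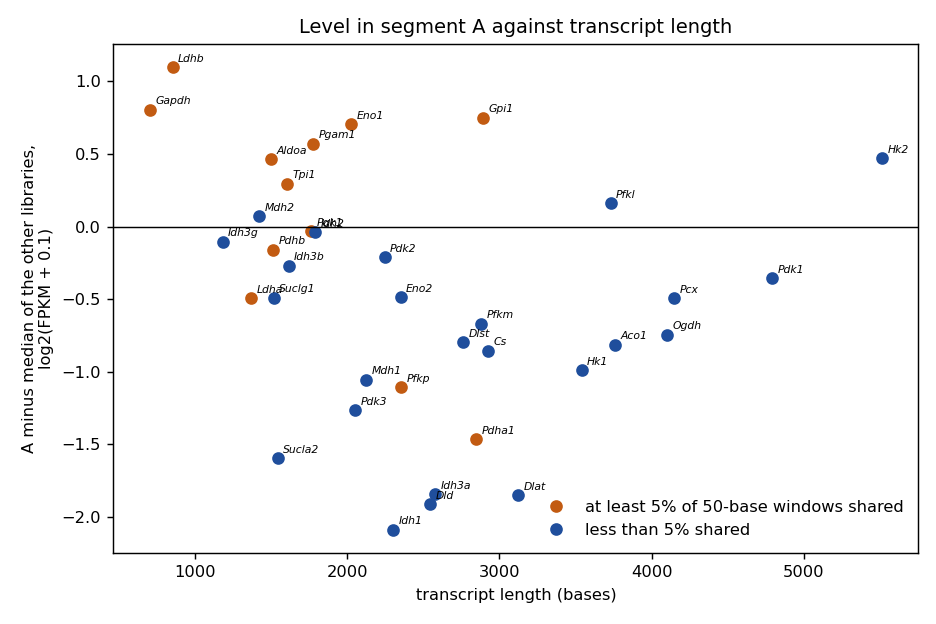
Level in segment A minus the median of the other 6 libraries, in log2(FPKM + 0.1), against transcript length in bases for the 36 classifiable enzymes. Orange points share at least 5% of their 50-base windows with transcripts of other genes, and the 7 enzymes highest in A (0.29 to 1.10 on the vertical axis) are all orange.

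The ratio of the summed FPKM of 13 glycolysis genes to that of 11 citrate cycle genes was 2.87 in A, 2.11 and 1.79 in B1 and B2, 1.82 and 1.88 in layer 5 (C, D) and 2.25 and 2.23 in E and F. C and D lay between the litters of layer 4, and A lay above all others. Without Gapdh and Aldoa the ratio was 1.66 in A and 1.63 in B1. Without the 7 glycolysis genes that shared at least 10% of their windows it was 1.15 in A, 1.35 and 0.943 in B1 and B2, 0.997 and 1.01 in layer 5 (C, D) and 1.12 and 1.11 in E and F, and A lay between the litters. The highest library was A with all 13 genes and B1 without those that share windows. The genes left out were Gpi1, Aldoa, Gapdh, Pgam1 and Eno1, all highest in A, and Pfkp and Pgk1. Those kept included Tpi1, highest in A, and Hk1, Pfkm and Eno2, lowest in A. The change of the highest library thus goes with the genes left out, and the part of read sharing in it was not tested.

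**Figure D4:**
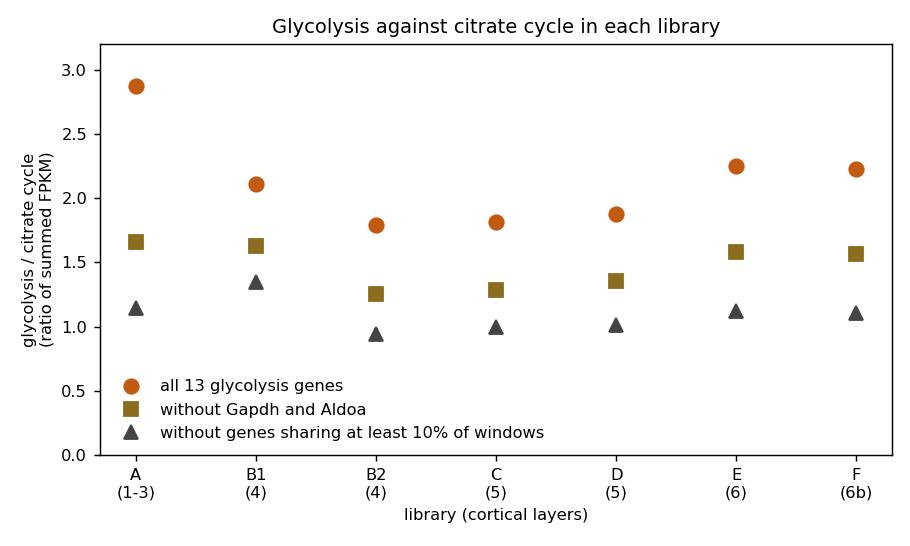
Ratio of summed FPKM of the glycolysis genes to that of the citrate cycle genes in each of the 7 libraries, for 3 choices of glycolysis genes. With all 13 genes A is highest at 2.87, and without the genes that share windows A is at 1.15, between B2 at 0.943 and B1 at 1.35.

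Ldha and Ldhb, the muscle and heart types of lactate dehydrogenase, had their highest levels at opposite ends of the cortex. Ldha had 37.2 FPKM in A, 35.9 and 32.4 in B1 and B2, 44.2 and 66.9 in C and D, and 62.1 and 68.5 in E and F. Ldhb had 192.9 FPKM in A, 42.8 and 93.9 in B1 and B2, 95.2 and 92.1 in layer 5 (C, D) and 88.0 and 66.5 in E and F. The litters differed 2.20-fold in Ldhb, so that layer 4 overlapped with every segment but A. The ratio of Ldha to Ldhb was 0.193 in A, 0.840 and 0.345 in B1 and B2, 0.464 and 0.726 in layer 5 (C, D) and 0.706 and 1.03 in E and F.

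By gene values, isocitrate dehydrogenase had the ratio most closely ordered by depth. Idh1, the cytosolic and peroxisomal NADP-dependent form (ENSMUSG00000025950, 1:65205190-65225755, mm9), had 3.13 FPKM in A, 7.60 and 7.86 in B1 and B2, 13.4 and 13.9 in C and D, and 17.6 and 28.7 in E and F, which is 9.17 times the level of A. Its ratio to Idh2, the mitochondrial NADP-dependent form, was 0.354 in A, 0.791 and 0.912 in B1 and B2, 1.46 and 1.69 in layer 5 (C, D) and 1.94 and 2.14 in E and F. By gene values the ratio was higher in each deeper segment. On the log scale the step from B2 to C exceeded the gap between the litters, whereas the steps from D to E and from E to F did not. The only Idh1 transcript matched to the reference had 3.13 FPKM in A, 5.06 and 7.86 in B1 and B2, and 8.36 and 9.21 in C and D. In E and F it had 10.8 and 14.5 FPKM, where Idh2 had 9.04 and 13.5. Over Idh2, this transcript was thus lower in F than in E. It was below the gene value in B1 and in C to F. The ratio and the tests that follow use gene values. Over the 7 libraries, log2 of the ratio and segment position had Pearson r = 0.91 (two-sided exact permutation p = 0.0048, adjusted over 12 pairs 0.057) and Spearman rho = 0.99 (exact permutation p = 0.00079, the smallest that 7 libraries with a tie allow, adjusted 0.0095). Without A and F, r was 0.94 (exact permutation p = 0.033). With GC content corrected, r was 0.95 and its adjusted p 0.024 in the exact permutation test. The summed FPKM of 10 oligodendrocyte markers rose in the same order, from 342 in A to 12916 in F, and its part in the ratio was not tested.

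By Pearson's r no pair passed after adjustment on the deposited values, and by Spearman's rho no pair but Idh1/Idh2 did. Pfkp, the platelet-type phosphofructokinase subunit, had 54.4 FPKM in A, 48.4 and 84.1 in B1 and B2, 107.6 and 127.8 in layer 5 (C, D) and 183.7 and 165.6 in E and F. Its ratio to Pfkm was 0.672 in A, 0.416 and 0.815 in B1 and B2, 0.731 and 0.911 in layer 5 (C, D) and 1.35 and 1.35 in E and F (r = 0.82, exact permutation p = 0.024, adjusted 0.097). By gene values Pfkp exceeded Pfkm in E and F and was lower in all other libraries. Pfkp transcripts of 702 and 550 bases had 48.8 and 23.9 FPKM in E, 53.1 and 17.3 in F and 0 in B1. Those of 2679 and 4145 bases had 63.8 and 41.0 FPKM in E and 57.6 and 35.5 in F, together less than Pfkm in both. Without B1, or with B1 and B2 averaged, Pfkp/Pfkm, Ldha/Ldhb and Idh3b/Idh3a passed too. The ratio of Idh3b to Idh3a was 3.00 in A, 1.37 and 1.40 in layer 4 and 0.967 (E) to 1.13 (C) in the deeper segments (r = -0.78, exact permutation p = 0.017, adjusted 0.097). These subunits belong to 1 enzyme, and the Idh3b transcript is shorter than that of Idh3a (1616 and 2580 bases).

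**Figure D5:**
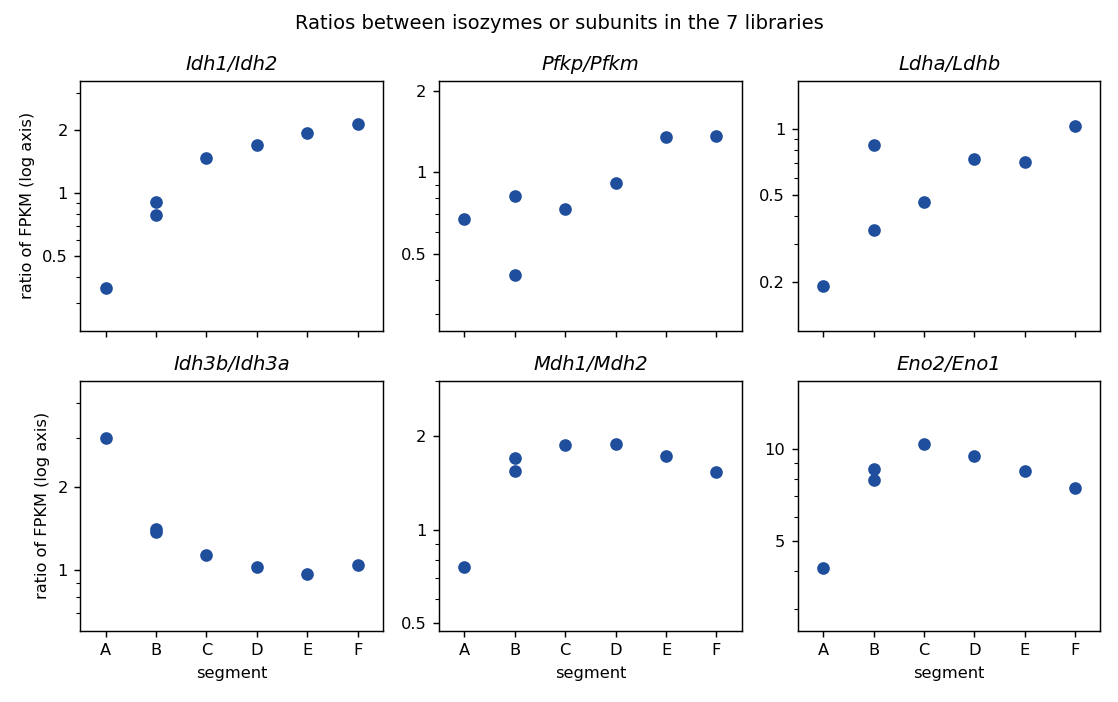
Ratios of FPKM between 6 pairs of isozymes or subunits in the 7 libraries, on log axes, against segment from A to F, with B1 and B2 as 2 points at B. The ratio of Idh1 to Idh2 climbs from 0.354 to 2.14, Pfkp/Pfkm reaches 1.35 in E and F, and Ldha/Ldhb differs most between B1 and B2.

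The ratios between the malate dehydrogenases and between the enolases were lowest in A. Mdh1, the cytosolic form that serves the malate-aspartate shuttle, had 125.8 FPKM in A, 187.2 and 246.6 in B1 and B2, 336.8 and 330.0 in C and D, and 277.2 and 238.0 in E and F. The ratio of Mdh1 to Mdh2 was 0.756 in A and 1.53 to 1.88 elsewhere. The main Mdh2 transcript had 112.4 FPKM in A, below the level of Mdh1. GC content was 45.7% in Mdh1 and 55.3% in Mdh2. With GC content and length corrected, A minus the median of the other libraries (log2) moved from -1.06 to -0.37 for Mdh1. For Mdh2 it moved from 0.07 to -0.05, so the gap between these genes in A was smaller. The ratio of Eno2 to Eno1 was 4.08 in A and 7.48 (F) to 10.4 (C) elsewhere. With the same correction, A minus the median of the others moved from -0.49 to -0.27 for Eno2 and from 0.71 to 0.64 for Eno1. Hk1 exceeded Hk2 in every library, with a Hk2 to Hk1 ratio of at most 0.0134.

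Among the pyruvate dehydrogenase kinases, which switch the complex off by phosphorylation, Pdk2 was the most abundant at 28.8 (B2) to 40.0 FPKM (F). Pdk1 had 8.03 (A) to 12.3 FPKM (E), and Pdk3 had 4.51 FPKM in A, 5.17 in B1, 8.88 in B2 and 10.6 to 11.8 in C to F. By gene values Pdk3 differed more between the litters than between B2 and any deeper segment. The value of B2 included a 392-base transcript, not classifiable, at 2.28 FPKM in B2 and 0 elsewhere. The 2115-base transcript had 5.17 FPKM in B1, 6.60 in B2 and 10.6 to 11.8 in C to F. On it B2 lay closer to B1 than to any deeper segment. Aco1, the cytosolic aconitase that doubles as an iron regulatory protein, was lowest in A at 4.08 FPKM and highest in F at 9.15. Pcx, which refills oxaloacetate and is known as an astrocyte enzyme in brain, had 14.1 FPKM in A, 22.8 in B1, 14.5 in B2 and 16.2 to 20.6 in C to F. A was lowest, and the litters spanned C to F.

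A trend across the ordered segments was called in 16 of 36 enzymes by limma's moderated F-test on linear and quadratic terms (adjusted p at most 0.05), close to the 43.5% of all genes. All 16 had a positive slope, where 35.5% of all genes were called with a positive slope and 8.06% with a negative one. By role they were Hk1, Pfkm and Pfkp of glycolysis, Ldha, Pdha1, Dlat, Dld and Pdk3 at the pyruvate step, Cs, Idh3a, Ogdh, Dlst and Sucla2 of the citrate cycle, and Aco1, Idh1 and Mdh1. The steepest slope was that of Idh1, 0.54 log2 units per segment (adjusted p = 0.0042), and Pfkp followed with 0.38 (adjusted p = 0.012). A curvature with its maximum in the middle segments passed the same threshold in 6 of 36, Pdha1, Dlat, Dld, Idh3a, Sucla2 and Mdh1, against 8.98% of all genes.

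Most of these calls were lost without segment A, which also leaves 1 library fewer. Without A the test called 3 of 36 enzymes, Ldha and Idh1 of the 16 and also Gpi1, with 10.1% of all genes (7.58% with a positive slope). The slope of Pfkp was 0.38 log2 units per segment with and without A, that of Idh3a was 0.30 with A and 0.15 without, and that of Sucla2 was 0.25 and 0.10. Without C it called 9 (28.9% of all genes), without D 10 (30.7%) and without E 9 (29.2%). With the libraries rescaled by the median of ratios it called 8, Gapdh with a negative slope and 7 with a positive one, where 33.0% of all genes were called and 17.3% with a positive slope. With GC content and length corrected it called 8, with 31.9% of all genes, 16.2% with a positive slope, and with GC content alone 8, with 27.0% and 14.1%. Idh1 was called with a positive slope under each of these settings.

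The litters of layer 4 differed beyond their 95% intervals in 25 of 36 enzymes, close to the 66.4% of all genes. Of the 25, 18 were higher in B2 and 7 in B1. Base composition also differed between these libraries. Over all genes, B1 minus the median of the other libraries (log2) was -0.46 for the 2701 genes with the lowest GC content and 0.24 for the 2700 with the highest. For B2 it was -0.16 and -0.18. With GC content corrected, 20 enzymes had intervals apart (59.4% of all genes). The part of GC content in the differences between litters was not tested. The widest differences were in Ldhb (42.8 and 93.9 FPKM, mean 68.3 ± 36.2 SD, n = 2), Pgk1 (6.84 and 11.9), Pfkp (48.4 and 84.1), Pdk3 (5.17 and 8.88) and Pdhb (4.74 and 8.10), all higher in B2. The Pfkp transcripts of 2679 and 4145 bases had 23.5 and 23.3 FPKM in B1 and 22.9 and 18.8 in B2, so they did not share the difference of the gene value. The 2115-base Pdk3 transcript had 5.17 FPKM in B1 and 6.60 in B2, a smaller difference than that of the gene value. Pcx (22.8 and 14.5) and Hk1 (107.2 and 76.6) were higher in B1. The main Hk1 transcript, of 3729 bases, had 57.9 FPKM in B1 and 56.0 in B2 with overlapping intervals, so it did not share the difference. For the citrate cycle the median ratio of B2 to B1 was 1.19, and for glycolysis 1.03.

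Of 50 further genes of these pathways 48 had a value and 36 were classifiable. A trend with a positive slope was called in 18 of the 36 (35.5% of all genes) and a negative slope in 0 (8.06%), and the layer 5 contrast passed in 0 (0.0351%). C and D were above all other libraries in 10 of 36 (7.56%). They included Fh1, fumarase (29.2 and 29.7 FPKM in C and D, 18.8 to 26.3 in the others). Of the 4 succinate dehydrogenase subunits, Sdhb and Sdhd had C and D on top, and Sdha and Sdhc did not. A was above all other libraries in 4 of the 36, Pkm, Aldoc, Mpc1 and Gpd1 (11.1%, against 18.5% of all genes). Their read sharing was not computed. Pkm, pyruvate kinase, and Aldoc, the astrocyte aldolase, had their highest level in A, at 209.8 and 421 FPKM. The astrocyte markers did not share this course. The summed FPKM of the 8 was 316 in A and 468 to 659 elsewhere. Of the 8, A was below all other libraries in 6 (49.8% of all genes) and above all others in 0 (18.5%). The part of astrocytes in the levels of A was not tested.

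Regulators of mitochondrial genes were also among the 10. Esrrg, a nuclear receptor known to activate oxidative genes, had 2.53 FPKM in A, 5.18 and 5.51 in B1 and B2, 12.97 and 13.9 in C and D, and 8.68 and 4.47 in E and F. Its log2 difference between layer 5 and the others was 1.44 ± 0.42 (SE). Ppargc1a, its coactivator, had 5.13 FPKM in A, 5.57 and 7.13 in layer 4, 12.9 and 10.3 in C and D, and 7.02 and 6.20 in E and F (log2 difference 0.89 ± 0.23). Esrra, a relative of Esrrg, was highest in B1 at 31.0 FPKM, and Hif1a, the oxygen-regulated activator of glycolysis, had 2.92 FPKM in A and 9.03 to 13.8 elsewhere. Esrrg, Ppargc1a and Got2, the mitochondrial aspartate aminotransferase, were the 3 of 36 that passed limma's unadjusted threshold of 0.05, and their adjusted p was 0.99. All 3 were higher in layer 5, where 1.25% of all genes passed as higher and 0.429% as lower.

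Promoter sequences were searched for the letters that these factors are known to prefer, since the enzymes of the cycle moved together. RefSeq promoters (GRCm38.p6) were matched for 36 of the 37 genes, with 54 starts, and the 250 bases before each start were read on both strands. AAGGTCA, the half-site of estrogen-related receptors, was in 1 of the 54, an Eno1 start, and in 4.08% of all 32851 promoters, and it was in none of the 19 starts of pyruvate dehydrogenase and citrate cycle genes. The core ACGTG of hypoxia-inducible factors was in 20 of the 54 and in 16.6% of all promoters. It was in starts of Aldoa, Hk2, Pfkm, Pgam1 and Pgk1 of glycolysis, Ldha, Pdhb, Pdk2 and Pdk3 at the pyruvate step, Idh3g and Ogdh of the citrate cycle, Mdh1 and Pcx. Windows of a gene can overlap, as several of the 6 of Ogdh do. The median GC content was 60.8% in the windows of the enzymes and 52.4% in all.

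The sequences are the Eno1 window with AAGGTCA and windows of a pyruvate-step gene, a glycolysis gene and a pair of citrate cycle genes that hold the ACGTG core. Each is given 5′ to 3′ on the strand of its gene, from 250 bases before the start to the base before it, with matches on either strand in capitals (ACGTG reads CACGT when on the other strand, and CACGTG holds both, overlapping). Ldha has the core at 3 places, counting overlapping matches once.
Eno1 (chr4:150236458-150236707, plus strand): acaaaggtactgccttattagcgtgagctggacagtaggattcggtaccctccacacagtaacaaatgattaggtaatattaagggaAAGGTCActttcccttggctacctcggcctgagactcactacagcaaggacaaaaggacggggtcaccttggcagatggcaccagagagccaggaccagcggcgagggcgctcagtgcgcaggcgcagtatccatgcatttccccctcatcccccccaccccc
Ldha (chr7:46845554-46845803, plus strand): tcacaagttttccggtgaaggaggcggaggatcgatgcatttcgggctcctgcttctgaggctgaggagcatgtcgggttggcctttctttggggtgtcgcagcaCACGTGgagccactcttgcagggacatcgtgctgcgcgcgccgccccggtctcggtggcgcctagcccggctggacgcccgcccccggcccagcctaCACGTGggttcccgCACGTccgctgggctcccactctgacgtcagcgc
Pgk1 (chrX:106186850-106187099, plus strand): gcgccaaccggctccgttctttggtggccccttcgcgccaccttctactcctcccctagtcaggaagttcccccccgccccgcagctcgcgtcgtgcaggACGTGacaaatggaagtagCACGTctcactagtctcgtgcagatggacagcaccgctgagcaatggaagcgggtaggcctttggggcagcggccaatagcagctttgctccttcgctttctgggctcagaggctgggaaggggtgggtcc
Ogdh (chr11:6291347-6291596, plus strand): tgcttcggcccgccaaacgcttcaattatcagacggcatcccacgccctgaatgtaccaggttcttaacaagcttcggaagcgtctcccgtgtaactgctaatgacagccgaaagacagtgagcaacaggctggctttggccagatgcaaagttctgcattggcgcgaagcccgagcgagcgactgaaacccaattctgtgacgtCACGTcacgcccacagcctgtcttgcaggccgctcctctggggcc
Idh3g (chrX:73786898-73787147, minus strand): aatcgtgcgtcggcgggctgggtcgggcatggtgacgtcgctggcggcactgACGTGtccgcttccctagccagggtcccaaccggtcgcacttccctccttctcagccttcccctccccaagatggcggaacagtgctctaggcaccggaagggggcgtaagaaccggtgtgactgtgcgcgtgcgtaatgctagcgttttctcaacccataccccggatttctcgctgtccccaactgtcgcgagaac
Of the printed genes with ACGTG, Ldha was highest in D to F, Pgk1 and Ogdh in D and Idh3g in C. The courses of genes with and without the core were not compared. Eno1, which was highest in A, had AAGGTCA and no ACGTG match. A match is a description of letters, and no match says nothing of the factor.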

How the data were processed

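The authors made paired-end libraries from polyadenylated RNA and mapped 50 bases of each end (75 in part of F) to mm9 with TopHat 1.0.13, and Cufflinks 0.8.3 estimated the deposited FPKM values of Ensembl release 57 genes with 95% intervals. The fraction and the coverage signal deposited for transcripts served isoform weights and depth. Samples were grouped by their labels, and a gene absent from a library was set to 0.

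Gene IDs were paired with symbols. The members and lists were chosen with earlier results of these data known, and named genes are all members plus a list of 50 pathway genes. Tests used limma 3.58.1 in R 4.3.3 on log2(FPKM + 0.1) over 11409 genes, with Benjamini-Hochberg adjustment, so fold changes of low genes are understated. Isozyme ratios were tested by exact permutation. On simulated data, 26% of 1.5-fold and 56% of 2-fold layer 5 changes were recovered, and 0% of 2-fold and 44% of 4-fold trends. The simulated noise came from the differences between B1 and B2 alone, without the differences between layers that the real spread holds. Recovery in the real libraries can therefore be lower. GC content, length and shared windows came from GENCODE M21 transcripts and promoters from RefSeq, since no mm9 genome was used here. The GC and length correction was a lowess fit within each library over 94.67% of the genes. The authors' de novo models were not used, and read sharing follows annotation, not their alignments. Intervals hold no variation between mice.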

Additional observations from a re-analysis of the deposited data

How the results depend on the processing

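No paired analysis was possible because only segment B has replicate numbers. Enzymes without a call have no direction to lose. The count of enzymes with a trend was 16 and became 8 after rescaling by the median of ratios, 8 with GC content corrected and 8 with GC content and length corrected (a correction added after the data were seen). Leaving out 1 library gave 3 (without A, 10.1% of all genes) to 18 (without B1, 57.9% of all genes), and fewer libraries leave fewer residual degrees of freedom. With GC content corrected, the slope of Mdh1 turned to -0.0012. The layer 5 contrast called 0 enzymes under all 16 alternatives. The median layer 5 share of the citrate cycle (39.1%) was 37.5% after the median of ratios, 37.1% with GC corrected and 37.3% with GC and length corrected, and 38.7% to 39.6% without a layer 4 library. That of glycolysis (33.4%) was 32.1% after the median of ratios, and that of all genes (34.2%) was 32.5%, 32.7% and 32.8%. The citrate cycle exceeded glycolysis by 5.77 percentage points, by 4.52 with GC corrected and by 4.15 with GC and length corrected. The glycolysis to citrate cycle ratio of layer 5, over the mean of the other segments, was 0.794 (0.780 to 0.808 without a layer 4 library). It was 0.852 with GC corrected, 0.846 with GC and length corrected, 0.750 with the cytosolic counterparts, 0.844 without Gapdh and Aldoa and 0.889 without genes that share windows. Isozyme pairs called by Pearson's r numbered 0, and 1 with GC corrected (Idh1/Idh2), 1 with GC and length corrected and 4 with B1 and B2 averaged, and 0 to 4 without 1 library (4 without B1). The enzymes highest in A numbered 7 (18.5% of all genes), and 14 after the median of ratios (33.5%), 12 with GC corrected (32.9%) and 11 with GC and length corrected (31.6%). Enzymes whose layer 4 intervals were apart numbered 25 after the median of ratios (66.3% of all genes) and 20 with GC corrected (59.4%). With the intervals widened 2 times they numbered 23 (44.4%). The causes were not tested. At this depth the intervals of Suclg2 were too wide for a call.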
